A study of Saccharomyces cerevisiae with 3 samples.

Results

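The small nuclear and small nucleolar RNA genes that RNA polymerase II (Pol II) transcribes were followed in budding yeast on an array of intergenic DNA. They were chosen by name: all features named SNR with a number, and LSR1, leaving out SNR6 and SNR52, which RNA polymerase III (Pol III) transcribes. This gave 39 of 6399 features. All 39 names matched a gene annotated as a small nuclear or small nucleolar RNA in a RefSeq gene table of assembly R64. That table holds 80 entries with such names, and the other 41, among them the U1 gene SNR19 and the U3 genes SNR17A and SNR17B, were not analysed here.

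Small nuclear RNAs form the cores of the spliceosome, which removes introns from pre-mRNA. Small nucleolar RNAs pair with ribosomal RNA and guide its chemical modification: those with a C and a D box guide mostly methylation of the ribose, and those with an H and an ACA box guide the conversion of uridine to pseudouridine. A few are needed to cut the ribosomal RNA precursor. Maf1 represses Pol III, and U6, the spliceosomal RNA of SNR6, is a Pol III product among spliceosomal RNAs otherwise made by Pol II.

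The series holds 3 conditions, which are no treatment, 30 min of rapamycin and 120 min of rapamycin. Rapamycin was given at 0.2 ng/ul and is an inhibitor of the TOR kinase that links growth to nutrients. All cells carried myc-tagged Maf1, and the labels name no untagged strain. Cells were grown in YPD, a rich glucose medium, to an optical density of 0.6. Crosslinked chromatin was depleted of Maf1 with antibodies, and its DNA, labelled with Cy5, was hybridized against DNA of the input chromatin, labelled with Cy3. Each condition has 1 deposited column, the authors' mean of 3 replicates, so no difference below has a replicate check, no test between conditions was possible and no p-value is given. No source used here says whether the replicates were separate cultures.

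Between 6279 and 6284 features had a value in each column, and all 39 small RNA features had one in all 3. Values are scores minus the median of their column, in score units. The log base and the direction of the ratio are not stated, so a high score is not read as more or less Maf1, and with the sign turned every higher score reads as a lower one. A level was counted as far out when it lay more than 2 robust SDs (the median absolute deviation, scaled to equal the SD of a normal distribution) from the column median, which is 0.777 in untreated cells, 0.884 at 30 min of rapamycin and 1.02 at 120 min. A difference between conditions was counted as large past 2 robust SDs of that difference over all features, which is 0.662 for 30 min minus untreated, 0.880 for 120 min minus untreated and 0.854 for 120 min minus 30 min. A feature carries the name of a gene, but the side of the gene that it covers is not stated.

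The Pol II small RNA features lay in the middle of the array in every condition. Their median score was 0.02 untreated, -0.06 at 30 min and -0.11 at 120 min. The lower and upper quartiles were -0.19 and 0.21 in untreated cells, -0.37 and 0.13 after 30 min, and -0.29 and 0.21 after 120 min. Features of open reading frames (ORFs) with no Pol III gene next to them had nearly the same middle, with medians of -0.05, -0.05 and -0.07 in the same order.

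Of the 39 features, 0 were far out in untreated cells, where 9.31% of all features were. After 30 min 0 of 39 were far out, where 4.95% of all features were. After 120 min 2 of 39 were far out, 1 on each side, where 11.9% of all features were, 7.6% on the high side and 4.35% on the low side. The tRNA genes lay higher. The 245 measured tRNA features had medians of 0.76 untreated, 0.62 at 30 min and 1.46 at 120 min, and the lower quartile of the tRNA features lay above the upper quartile of the Pol II small RNA features in each condition.

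**Figure D1:**
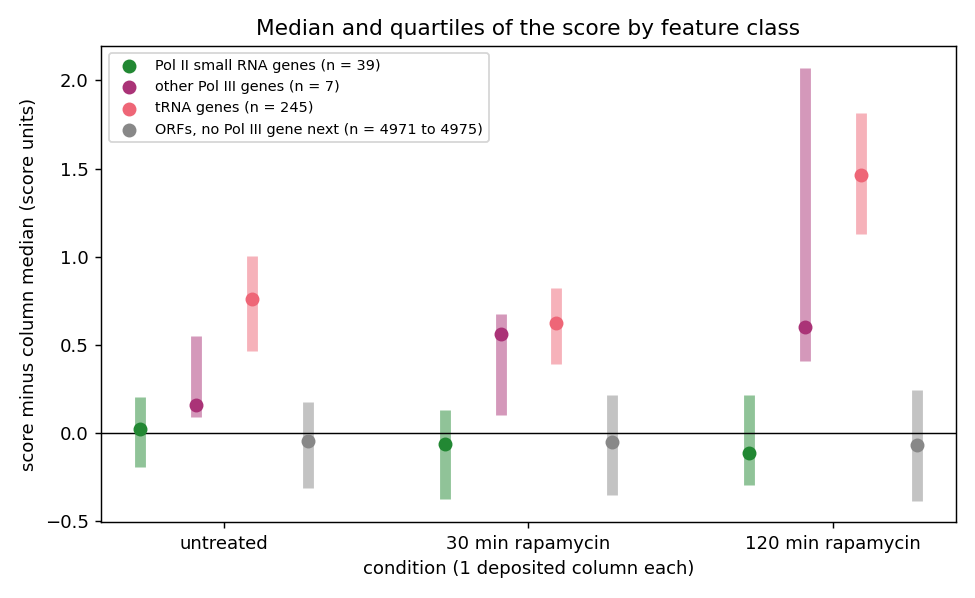
The plot of classes shows the median (point) and the quartiles (bar) of the score minus the column median, in score units, for 39 Pol II small RNA features, 7 features of Pol III genes other than tRNA genes, 245 tRNA features and ORF features with no Pol III gene next. The Pol II small RNA features stay around 0 in all 3 conditions, while the tRNA median stands at 1.46 after 120 min.

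Single small RNA features differed among themselves. In untreated cells the highest scores were 0.66 at SNR53, 0.52 at SNR66 and 0.51 at SNR55, all genes of box C/D guides of ribosomal RNA methylation. The lowest were -0.39 at SNR71, -0.37 at SNR64 and -0.36 at SNR68, also box C/D guides. These scores lay between the percentiles 17.1 and 93.1 of all features.

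After 30 min in rapamycin the highest scores were 0.51 at SNR54 and 0.45 at SNR53, followed by 0.44 at SNR69. The lowest were -0.78 at SNR13, -0.72 at SNR7-S and -0.70 at SNR190, and SNR13 lay at percentile 4.81 of all features. After 120 min SNR53 stood at 1.54, at percentile 95.8, SNR48 at 0.86 and SNR50 at 0.60. At the other end SNR42 stood at -1.03, just past the limit and at percentile 4.28, SNR190 at -0.72 and SNR44 at -0.64. The score of SNR42 lay inside the limit with quantile normalization, without centring and with centring by chromosome or on ORF features. SNR53 was among the 3 highest in all 3 columns, and no gene was among the 3 lowest in all of them.

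**Figure D2:**
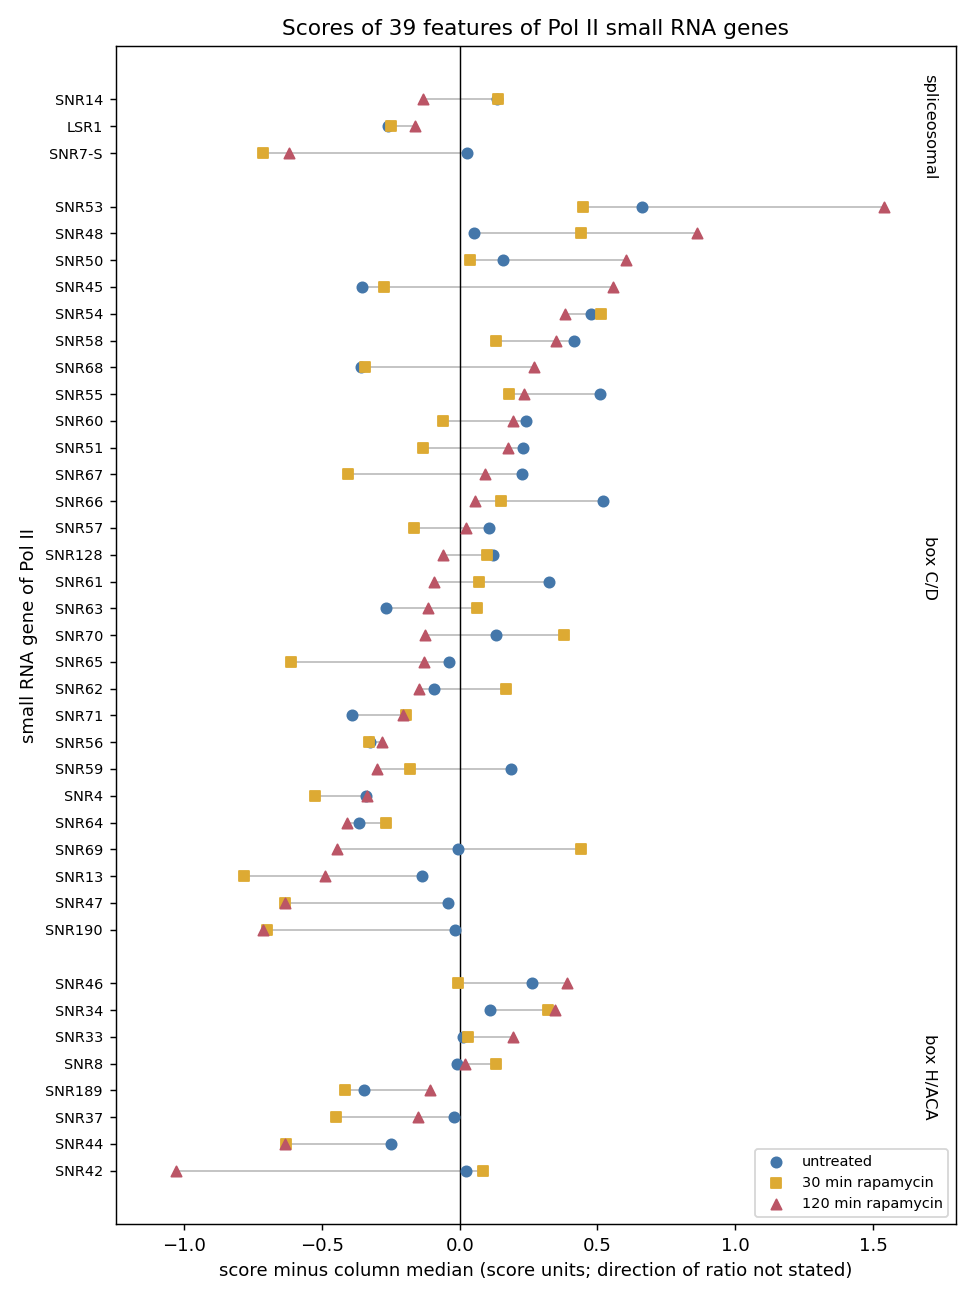
The plot of all 39 features gives the score minus the column median, in score units, in untreated cells (circles), after 30 min (squares) and after 120 min (triangles) of rapamycin, ordered within each class by the score after 120 min. SNR53 reaches 1.54 and SNR42 -1.03 after 120 min, and the other 37 features stay between -0.72 and 0.86 there.

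The features that moved least between conditions were SNR56, whose 3 scores spanned 0.05, LSR1, with 0.10, and SNR54, with 0.13. SNR42 and SNR53 spanned most, 1.11 and 1.09. Across the 39 features the Pearson correlation with the untreated scores was 0.54 for the 30 min scores and 0.46 for the 120 min scores, and that between the rapamycin columns was 0.54. Over all features of the array the same correlations were 0.55, 0.59 and 0.58, and over the ORF features 0.49, 0.49 and 0.52. Without SNR53 those of the small RNA features were 0.50, 0.33 and 0.50, with SNR42 kept. The Spearman correlations, taken on ranks, moved less. They were 0.57, 0.49 and 0.52 over the 39 features and 0.54, 0.45 and 0.49 without SNR53. The points share their spots and the authors' normalization between columns, and genes are not independent replicates.

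Among the spliceosomal RNA genes, 3 made by Pol II could be set beside the Pol III gene of U6. LSR1, the gene of U2, stood at -0.26 in untreated cells, -0.25 at 30 min of rapamycin and -0.16 at 120 min. SNR14, the gene of U4, stood at 0.14, 0.14 and -0.13. Both stayed inside the limits throughout, with LSR1 at percentiles 26.4, 29.8 and 37.6 of all features. SNR7-S, named for the short form of U5, stood at 0.03, -0.72 and -0.62, and so was the low one of the 3 after rapamycin without being far out.

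SNR6 took another course, with 0.09 in untreated cells, 0.79 at 30 min of rapamycin and 1.92 at 120 min. The change from untreated cells to 120 min was 0.10 at LSR1, -0.27 at SNR14 and -0.65 at SNR7-S, against 1.83 at SNR6. In untreated cells SNR6 lay inside the range of the 3 Pol II genes, and after 120 min it lay above each of them by more than 2 score units. SNR52 is the Pol III gene of a box C/D RNA. It stood inside the range of the Pol II box C/D features untreated and at 120 min, and above that range at 30 min. It had 0.16, 0.62 and 0.29. The middle value lay above the highest Pol II small RNA feature of that column, SNR54 at 0.51, and the last one just above the upper quartile of 0.24 of the 28 box C/D features.

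**Figure D3:**
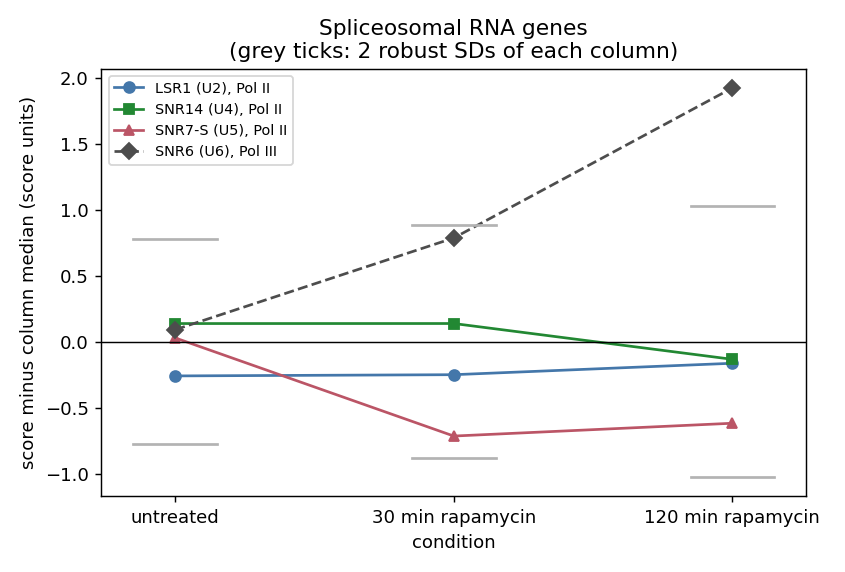
The plot of spliceosomal RNA genes gives the score minus the column median, in score units, of LSR1, SNR14 and SNR7-S (solid lines) and of the Pol III gene SNR6 (dashed line) in the 3 conditions, with 2 robust SDs of each column as grey ticks. After 120 min SNR6 stands at 1.92, and the Pol II genes stand between -0.62 and -0.13.

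After 30 min in rapamycin the median difference of the Pol II small RNA features from untreated cells was -0.12, against 0.00 over all features. Of the 39 features 23 were below 0 and 16 above it, where 50.5% of all features were below 0. The median was -0.06 without centring, against 0.06 over all features, and -0.07 without the 4 features next to a tRNA gene. Only SNR7-S, at -0.74, and SNR190, at -0.68, passed the limit, both on the low side, where 5.83% of all features did. None passed it on the high side, against 5.29% of all features. SNR190 lay inside the limit with equal spread, with quantile normalization and without centring, and SNR7-S with centring by chromosome. SNR190 is the gene of a box C/D RNA. SNR13, also a box C/D gene, lay just inside the limit at -0.65. The highest differences were 0.45 at SNR69, 0.39 at SNR48 and 0.33 at SNR63. With 0.5 score units as the limit 6 of 39 features lay past it on the low side, where 10.3% of all features did, and 0 on the high side, where 8.89% did.

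SNR190 scored -0.02 in untreated cells, -0.70 at 30 min of rapamycin and -0.72 at 120 min. SNR13 scored -0.14, -0.78 and -0.49. SNR47, a box C/D gene whose RNA guides methylation in both ribosomal subunits, scored -0.04, -0.63 and -0.63. These 3 features and SNR7-S were near the column median in untreated cells and low in both rapamycin columns. All their rapamycin scores still lay inside the limits for a level. SNR67 and SNR65, both box C/D genes, also fell by more than 0.5 score units at 30 min, but did not stay low. SNR67 scored 0.23, -0.41 and 0.09, and SNR65 scored -0.04, -0.61 and -0.13.

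After 120 min in rapamycin the median difference from untreated cells was -0.07, against 0.07 over all features and 0.02 over ORF features with no Pol III gene next. Of the 39 features 24 were below 0, where 43.9% of all features were. SNR45, at 0.91, passed the limit on the high side, where 5.53% of all features did, and SNR42, at -1.05, on the low side, where 4.97% did. SNR53 lay at the limit, with 0.88, and passed it without centring and with centring on ORF features, but its difference was 0.23 with quantile normalization. SNR45 and SNR42 passed their limits under each of the 5 other scalings. The next differences were 0.81 at SNR48 and 0.63 at SNR68 on the high side, and -0.70 at SNR190 and -0.65 at SNR7-S on the low side. With 0.5 score units as the limit 4 features lay past it on each side, where 17.3% of all features did on the high side and 12.4% on the low side. The tRNA features differed by a median of 0.72 in the same comparison, and 234 of 245 were above 0.

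SNR45 is the gene of a box C/D RNA that guides acetylation of the ribosomal RNA of the small subunit. It stood at -0.36 in untreated cells, -0.27 at 30 min of rapamycin and 0.56 at 120 min. SNR4, whose RNA guides acetylation too, stood at -0.34, -0.53 and -0.34 and so showed no such difference. The feature of NOC4, next to SNR45 at lower coordinates in the gene table, stood at 0.10, -0.09 and -0.33 and did not share the high score. No feature was matched to ASN1, the next gene at higher coordinates, so no score of that neighbour could be set beside SNR45.

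SNR42 is the gene of a box H/ACA RNA. It stood at 0.02 in untreated cells, 0.08 at 30 min of rapamycin and -1.03 at 120 min, so that it was low in the last column alone. Its neighbours in the gene table did not share the low score. The feature of KTR2, on the side of lower coordinates, had 0.12 after 120 min, and that of TFA2, on the other side, 0.17.

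**Figure D4:**
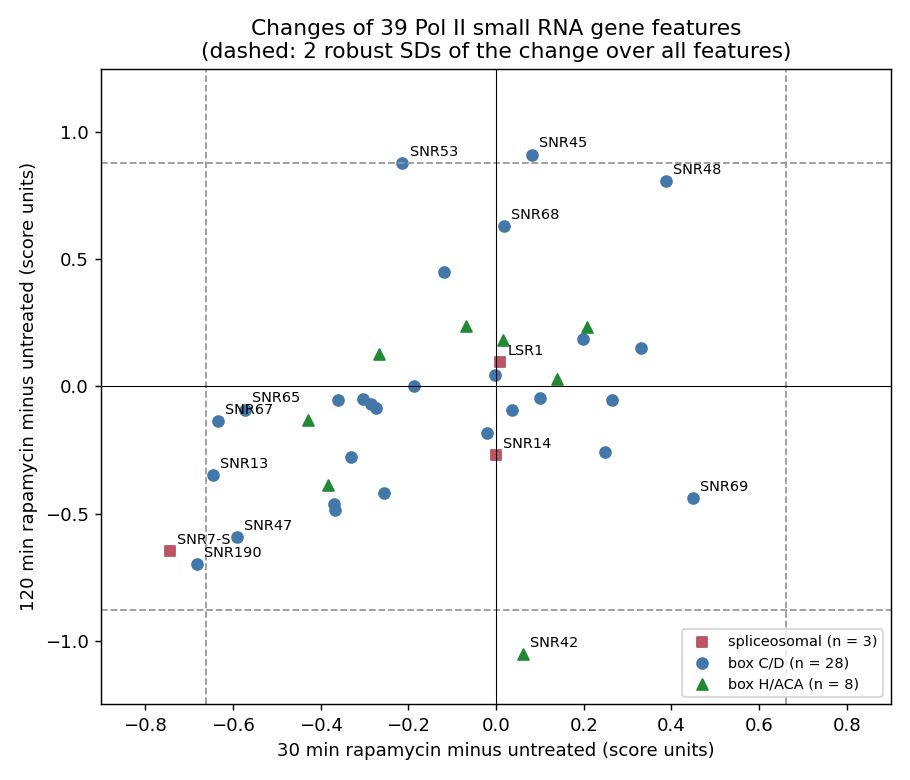
The plot of changes sets, for each of the 39 features, the difference of 120 min rapamycin minus untreated cells (vertical axis) against that of 30 min minus untreated cells (horizontal axis), both in score units, with 2 robust SDs of each difference over all features as dashed lines. Both axes share the untreated column. SNR7-S and SNR190 lie past the lower limit at 30 min, and SNR45 and SNR42 lie past opposite limits at 120 min.

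The 2 differences share the untreated column, so only their own values are set side by side. SNR48, the gene of a box C/D RNA that guides methylation in the large subunit, was above untreated cells at both times, with scores of 0.05, 0.44 and 0.86. SNR68, also a box C/D gene, was nearly level at 30 min, with -0.36, -0.34 and 0.27.

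Between 30 and 120 min the median difference was 0.05, against 0.07 over all features, and 22 of 39 features were above 0, where 56.9% of all features were. SNR53 passed the limit at 1.09, where 6.98% of all features passed it on the high side. SNR42, at -1.11, and SNR69, at -0.89, passed it on the low side, where 5.24% did. SNR45, at 0.83, lay just inside it and passed it with centring by chromosome, at 0.88. SNR53 lay inside the limit with quantile normalization, and SNR69 with centring by chromosome. Past 0.5 score units there were 4 features on the high side and 3 on the low side, where 17.1% and 11.4% of all features were. SNR69, a box C/D gene, had scores of -0.01, 0.44 and -0.45, the only 1 of the named features to stand above 0.40 in one rapamycin column and below -0.40 in the other.

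By role, the 28 box C/D features had median scores of 0.08 untreated, -0.10 at 30 min and -0.08 at 120 min, and the 8 box H/ACA features 0.00, 0.01 and -0.05. The median difference of 120 min minus untreated was -0.08 over the box C/D features and 0.08 over the box H/ACA features. The quartiles of these differences overlapped, from -0.30 to 0.07 for box C/D and from -0.20 to 0.19 for box H/ACA. Apart from SNR42, the box H/ACA features spanned -0.39 at SNR44 to 0.24 at SNR189 in this comparison. SNR128, the gene of U14, which is needed to cut the ribosomal RNA precursor, stood at 0.12, 0.10 and -0.06, near the column median in every condition.

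By arrangement, 9 features are named for genes that share a transcript with other small nucleolar RNAs, 3 for genes inside introns and 27 for genes with a transcript of their own. In the shared transcripts 8 of 9 features were lower after 30 min than in untreated cells, and 8 of 9 were lower after 120 min, where 50.5% and 43.9% of all features were. Their median differences were -0.27 and -0.18. Both differences share the untreated column, where these features stood high, with a median score of 0.23 and 8 of 9 above 0. Their median scores after rapamycin were 0.07 at 30 min and 0.02 at 120 min, with 5 of 9 above 0 each time. In untreated cells the features with a transcript of their own had a median score of -0.02. These 9 features belong to only 4 transcripts, so they are not independent of each other. The 27 features with a transcript of their own had median differences of 0.00 at both times.

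Features of 1 transcript did not always score alike. SNR57, SNR55 and SNR61, next to each other on chromosome XII, had differences at 30 min of -0.27, -0.33 and -0.26, a gap of 0.07 between the highest and the lowest. SNR190 and SNR128, which share a transcript, differed from untreated cells by -0.68 and -0.02 at 30 min. SNR67 and SNR53 had scores of 0.09 and 1.54 after 120 min, the widest gap of the 4 transcripts at 1.45.

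The 3 features of intron genes were SNR44, inside RPS22B, SNR59, inside RPL7B, and SNR54, inside IMD4. SNR44 stood at -0.25 in untreated cells, -0.63 at 30 min of rapamycin and -0.64 at 120 min. SNR59 stood at 0.19, -0.18 and -0.30, and SNR54 at 0.48, 0.51 and 0.38. The first pair, in ribosomal protein genes, stood lower in both rapamycin columns than in untreated cells, by 0.37 to 0.49, and SNR54 stayed high in all 3 columns.

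Pol III genes beside the small RNA genes were looked up in the gene table, since ORF features with a Pol III gene next on the side of higher coordinates had a median of 1.22 after 120 min (233 features), against 0.07 for those with one on the lower side alone (200 features). Of the 39 small RNA genes, 4 had a tRNA gene next to them. SNR53 and SNR33 had it on the side of higher coordinates. SNR53 stood at 0.66 in untreated cells, 0.45 at 30 min of rapamycin and 1.54 at 120 min. SNR33, a box H/ACA gene next to the tRNA gene SUF16, stood at 0.01, 0.03 and 0.19. The only far-out high score of the class was thus at 1 of these 2 features, while the other stayed near the column median.

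SNR46 and SNR61 had a tRNA gene on the side of lower coordinates. SNR46, a box H/ACA gene, stood at 0.26, -0.01 and 0.39. SNR61, a box C/D gene, stood at 0.32, 0.07 and -0.09. Neither came near the tRNA median of 1.46 after 120 min. Among the 35 features with no Pol III gene next, the highest score after 120 min was 0.86, at SNR48, and the median was -0.13. The part of the tRNA gene in the score of SNR53 was not tested.

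The gene table also placed 10 of the 39 genes beside or inside a ribosomal protein gene, a class added after the values had been seen. They were SNR44 and SNR59 as above, SNR13, SNR34, SNR4, SNR56, SNR63, SNR57, and both SNR65 and SNR189, on either side of RPS14A. Their median scores were -0.19 in untreated cells, -0.37 at 30 min of rapamycin and -0.21 at 120 min, and 7, 8 and 8 of the 10 lay below 0, where centring places 50% of all features in each column. The other 29 features had medians of 0.05, 0.04 and 0.02. The ranges overlapped in each column, and SNR34, next to RPS29A, had 0.11, 0.32 and 0.35. The 10 features differed from untreated cells by a median of -0.23 after 30 min, with 8 below 0, where 50.5% of all features were. After 120 min the median difference was -0.04, with 5 of the 10 below 0, where 43.9% of all features were. The other 29 features had median differences of -0.02 and -0.07.

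The genes lie on both strands, 20 on the Crick strand and 19 on the Watson strand by their locus tags. After 120 min the Crick features differed from untreated cells by a median of -0.11, with 16 of 20 below 0, and the Watson features by 0.03, with 8 of 19 below 0. Over all features 43.9% were below 0. The Crick features SNR128, SNR190, SNR51, SNR70, SNR55, SNR57 and SNR61 belong to shared transcripts, and all were below 0 there. The split by strand thus overlaps with that by arrangement, and its features are not independent of each other. It was not among the classes planned beforehand. After 30 min the Crick features had a median of -0.16, with 12 of 20 below 0, and the Watson features a median of -0.12, with 11 of 19 below 0, so that no such split between the strands was seen. The highest difference of a Crick feature was 0.24, and the Watson features with the highest differences were SNR45, SNR53, SNR48 and SNR68.

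Protein genes of the same pathway were looked at from a list of 34, of which 29 had a feature with values. The list holds the proteins of mature box C/D and H/ACA particles, their assembly factors, factors that cap, cut or terminate the RNAs, Sm proteins of the spliceosome and promoter factors. Their median difference from untreated cells was -0.04 after 30 min and 0.05 after 120 min. After 30 min PCF11, a cleavage and termination factor gene, and REB1, a promoter factor gene, passed the limit on the high side, with 1.19 and 0.75, and none of the 29 passed it on the low side, where 5.29% and 5.83% of all features did. After 120 min NHP2, a core protein gene of box H/ACA particles, passed it on the high side with 1.07, and none passed it on the low side, where 5.53% and 4.97% of all features did. These counts are near the shares of the array. NHP2 stood at -0.37, 0.25 and 0.69. PCF11 stood at -1.02 in untreated cells, 0.17 at 30 min of rapamycin and -0.30 at 120 min, so that its differences started from a far-out low score.

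A level was far out at 1 of the 29 features in each column, where 9.31%, 4.95% and 11.9% of all features were far out. These were PCF11 in untreated cells, RVB1, an assembly factor gene, at -1.07 after 30 min, and SMX3, an Sm protein gene, at 1.06 after 120 min. NOP1, which encodes the methyltransferase of box C/D particles, stood at 0.34, -0.24 and 0.32, and CBF5, the pseudouridine synthase gene of box H/ACA particles, at 0.03, 0.31 and 0.10. Both enzyme genes stayed inside the limits, and their differences did too. TLC1, the Pol II gene of telomerase RNA, stood at 0.27, 0.15 and 0.59, also inside the limits.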

How the data were processed

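Two-colour arrays of intergenic DNA were hybridized with immunodepleted against input chromatin, per the labels. The deposited unit is a score: per the labels, the authors normalized to a gene list and averaged 3 replicates into 1 column per condition. No source used here gives that list, any background correction, the log base, the direction of the ratio or the array's genome build. No column lacked a sample.

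The median of a column over all its values was subtracted, and differences were taken per feature, with Python 3.11.15 and pandas 2.3.3. Limits are 2 robust SDs over all features. Neighbouring genes, strands and annotations came from a RefSeq table of assembly R64, used for names and gene order alone. The members and lists were chosen with earlier results of these data known. Named features are the spliceosomal genes, SNR128, the 3 highest and 3 lowest of each column and difference, those past a limit and those next to a Pol III gene. Others are named as examples of a class. Alternatives were equal spread, quantile normalization, no centring, centring by chromosome or on ORF features, other limits and fewer members.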

Additional observations from a re-analysis of the deposited data

Results flagged for a closer look

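SNR42 differed from untreated cells by 0.061 after 30 min and by -1.05 after 120 min, with the second difference past its limit. The signs are opposite, but the first difference was small beside its robust SD of 0.331 over all features. A score above untreated cells at 30 min and below them at 120 min was seen at 7 of 39 features. Each time has 1 averaged column and both differences share the untreated one, so the opposite signs were not tested.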

How the results depend on the processing

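Over the alternatives run, the median level of the Pol II small RNA features was between -0.01 and 0.09 in untreated cells, -0.17 and -0.01 at 30 min, and -0.13 and 0 at 120 min. Their median difference was between -0.15 and -0.06 for 30 min minus untreated, -0.11 and -0.04 for 120 min minus untreated, and 0.02 and 0.11 for 120 min minus 30 min. Under the other scalings, counts of features past a limit moved with 1 or 2 features close to it. The fixed limit of 0.5 score units for a difference moved the counts more. After 120 min, 2 features were far out, against 1 with quantile normalization, without centring, with centring on ORF features, without the 4 features next to a tRNA gene and with 3 robust SDs. The 1 feature left was SNR42 without those 4 and SNR53 in the others. With each chromosome centred separately the features past it were SNR48 and SNR53, and 1 feature, SNR53, was far out in untreated cells, against 0. For 30 min minus untreated, 2 features passed the limit, against 1 with equal spread, quantile normalization and no centring (SNR7-S) and 1 with centring by chromosome (SNR190). With 0.5 score units as the limit, 6, 8 and 7 features passed for 30 min minus untreated, 120 min minus untreated and 120 min minus 30 min, against 2, 2 and 3. The difference at SNR53 after 120 min ran from 0.23 with quantile normalization to 0.90 without centring. No paired analysis was possible because each condition has 1 averaged column, and no replicate could be left out for the same reason. The number of arrays limits the precision.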
